A study of Homo sapiens with 12 samples.

Results

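TXNIP, ARRDC4, MLXIP and MLX are 4 genes of the pathway through which cells read their sugar supply, and their transcripts were followed in a human kidney cell line given a compound that the labels call Ota. The 4 genes were selected on their measured values in these arrays, so their levels are given as a description and without a test. All probe sets whose annotation names exactly 1 of these genes were taken, which gave 14 of the 54675 probe sets on the array: 3 for TXNIP, 1 for ARRDC4, 4 for MLXIP and 6 for MLX. Of these 14 probe sets, 9 exceeded a log2 value of 4 on 3 arrays or more, and none of the genes lost all of its probe sets. The other 5 had values near the bottom of the scale and are described with their gene. The 4 genes stand among 10729 genes that passed this filter, of 19775 genes with a probe set of their own.

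MondoA, the protein of MLXIP, is a transcription factor that works as a dimer with MLX, the protein of the gene of the same name. When glucose 6-phosphate rises in the cell, the dimer enters the nucleus and binds carbohydrate response elements, which are pairs of short E-box-like sequences. Its best known targets are TXNIP, whose protein binds thioredoxin and removes glucose transporters from the cell surface, and ARRDC4, a related alpha-arrestin that also restrains glucose uptake. Neither glucose, glucose 6-phosphate nor any protein was measured here.

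The cells were HK-2, an immortalized epithelial line from the proximal tubule of the human kidney. They grew in medium with 5 mM glucose that also held insulin, epidermal growth factor and hydrocortisone, and were treated when nearly confluent. The 4 groups were cells given Ota at a high dose for 24 h, cells given its vehicle for 24 h, and the same pair of treatments at 72 h. Each group had 3 arrays that the labels call biological replicates, and the amount of Ota and its full name are not in the labels. Whether the cultures were separate is not stated beyond that, so a p-value here reflects how far these samples spread, which may be technical. Whether the medium was renewed between 24 h and 72 h is not stated either.

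All 5 epithelial markers examined (KRT8, KRT18, KRT19, CDH1 and EPCAM) passed the filter, whereas of 12 proximal tubule markers 1 did, PAX8. No leukocyte marker (0 of 6) and no endothelial marker (0 of 5) passed, while 3 of 5 fibroblast markers did (COL1A1, DCN and LUM). Of the podocyte list 2 of 4 passed and of the distal nephron list 1 of 5. Only 10 of the 12 proximal tubule and 4 of the 6 leukocyte markers had a probe set of their own. In the podocyte and distal nephron lists 3 of 4 and 4 of 5 had one. The others could not pass. By limma's test 2 epithelial markers and PAX8 were lower in Ota cells at each time. The epithelial mean ran from 11.06 to 11.43 on control and from 10.15 to 10.79 on Ota arrays at 24 h, and from 11.28 to 11.47 and 10.31 to 10.61 at 72 h. Of the fibroblast list 1 was higher and 1 lower at 24 h and 1 higher at 72 h, and the 72 h mean ran from 5.77 to 5.94 in controls and from 6.21 to 6.54 in Ota cells. The distal nephron marker AQP3 was higher at both times, and 1 podocyte marker at 72 h. The part of these markers in the differences below was not tested.

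Several array-wide measures moved with Ota. The median of the tested genes was lower with Ota, by 0.56 on the log2 scale at 24 h and by 0.28 at 72 h. The median of the differences of single genes was -0.24 and -0.11. Over all 19775 genes, with no filter, it was 0.029 and 0.015. The spike-ins with poly-A tails, which are foreign transcripts put into the RNA as a reference, were brighter by 1.85 and 0.89, and 18S ribosomal RNA by 1.58 and 1.34. The distance between the 3′ and 5′ probe sets of ACTB, a sign of RNA quality, was larger with Ota by 0.046 at 24 h and by 0.58 at 72 h (1.97 against 1.39). Their part in the differences between Ota and control cells was not tested. Centring each array on its median adds 0.56 to every difference at 24 h and 0.28 at 72 h, and scaling to the spike-ins takes off 1.85 and 0.89. Between the control arrays of 72 h and 24 h the 4 measures differed by -0.0024, 0.036, 0.32 and 0.21. In whole cultures, fewer cells of a kind and less RNA per cell cannot be told apart.

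Of the RefSeq promoters, those of TXNIP, ARRDC4 and MLX are shown because they hold E-box-like sites, single or paired. Each run covers the 250 bases before an annotated start in GRCh38.p14, read 5′ to 3′ on the strand of the gene. Capitals mark 6-base E-box-like sites CACGNG and 5-base CCAAT boxes, searched on both strands. The E-box CACGTG is 1 form of the E-box-like site, so a match to it counts as both.
TXNIP, chr1:145996580-145996829, minus strand: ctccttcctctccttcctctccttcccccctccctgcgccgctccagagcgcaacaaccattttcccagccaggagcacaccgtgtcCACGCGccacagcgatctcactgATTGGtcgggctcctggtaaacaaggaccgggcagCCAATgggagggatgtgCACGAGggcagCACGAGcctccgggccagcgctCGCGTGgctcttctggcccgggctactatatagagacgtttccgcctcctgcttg
ARRDC4, chr15:97960453-97960702, plus strand: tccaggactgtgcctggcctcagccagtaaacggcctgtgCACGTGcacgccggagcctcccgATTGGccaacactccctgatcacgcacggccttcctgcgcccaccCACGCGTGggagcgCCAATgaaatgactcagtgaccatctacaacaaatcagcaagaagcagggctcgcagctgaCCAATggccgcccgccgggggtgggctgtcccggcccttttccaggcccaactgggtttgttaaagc
MLX, chr17:42566850-42567099, plus strand: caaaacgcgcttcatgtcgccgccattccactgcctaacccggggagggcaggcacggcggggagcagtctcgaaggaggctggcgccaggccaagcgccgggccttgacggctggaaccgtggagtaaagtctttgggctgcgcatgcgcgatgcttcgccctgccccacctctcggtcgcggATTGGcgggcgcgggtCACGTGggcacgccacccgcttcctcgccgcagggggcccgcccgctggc

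The TXNIP window held 4 E-box-like sites and 2 CCAAT boxes. A pair of its E-box-like sites, both CACGAG, lay in the same orientation with 5 bases between them, from 88 to 72 bases before the start. The CCAAT boxes began 140 and 105 bases before the start. A pair with this spacing was present in 23 of 35116 promoter windows of the same length (0.0655%), a single E-box-like site in 26.7% and a CCAAT box in 32.0%. The ARRDC4 window held an E-box from 210 to 205 bases before the start, 2 further E-box-like sites that overlap each other between bases 142 and 135, and 3 CCAAT boxes. The MLX window held 1 E-box, 50 to 45 bases before the start, and 1 CCAAT box. Neither the ARRDC4 nor the MLX window held a pair of E-box-like sites with 5 bases between them. An E-box was present in 6.34% of all windows. The MLXIP window (chr12:122078506-122078755, plus strand) held no E-box-like site and 1 CCAAT box, and a second TXNIP start (chr1:145995745-145995994, minus strand) had none of these matches. These are matches of letters in a fixed window, and no binding was measured.

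TXNIP had high values in all cells at 24 h and values near the bottom of the scale in control cells at 72 h. The values below are those of the probe set with the highest mean, 201008_s_at. In control cells at 24 h its log2 values were 9.91, 9.62 and 9.91, and in Ota cells at 24 h they were 10.83, 10.77 and 10.58. In control cells at 72 h they were 4.31, 3.72 and 3.34, and in Ota cells at 72 h they were 7.95, 8.57 and 6.54. No 2 of the 4 groups overlapped: Ota at 24 h was highest, then control at 24 h, then Ota at 72 h, then control at 72 h.

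The largest TXNIP difference lay between the control groups. The mean was 9.81 ± 0.17 (SD, n = 3) at 24 h and 3.79 ± 0.49 (SD, n = 3) at 72 h, a log2 difference of -6.02 ± 0.41 (SE). This was the lowest of the 10729 tested genes in that comparison. The deposited values carry no detection call, so a level under 4 is not a statement of absence and no fold is given for this difference. In Ota cells the mean went from 10.73 ± 0.13 (SD, n = 3) to 7.68 ± 1.04 (SD, n = 3), a difference of -3.05 ± 0.41 (SE) and the 108th lowest of all tested genes. TXNIP was thus lower at 72 h than at 24 h in both kinds of culture, and by less in Ota cells.

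Against controls of the same time, TXNIP was higher in Ota cells by 0.92 ± 0.41 (SE), or 1.89-fold, at 24 h and by 3.90 ± 0.41 (SE) at 72 h. The 24 h difference was exceeded by 10.1% of the tested genes and the 72 h difference by 0.298%. The difference between the 2 was 2.98 ± 0.58 (SE). Both differences have the same SE because limma took a common variance per gene over all groups. The SD pooled over Ota and control arrays was 0.15 at 24 h and 0.82 at 72 h. The control values of 72 h lie near the bottom of the scale and were not shown to be above background, so these sizes and ranks describe GCRMA values and are no measure of the transcript's fold. The 72 h comparison and the control time course share the control arrays of 72 h, so the low TXNIP values on those arrays enter both.

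**Figure D1:**
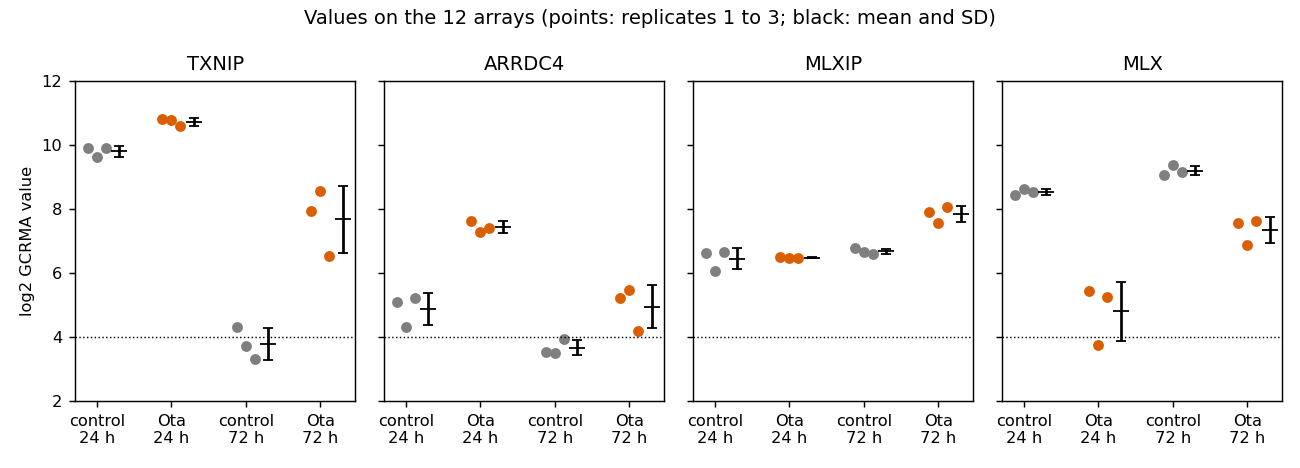
Log2 GCRMA value on each of the 12 arrays for TXNIP, ARRDC4, MLXIP and MLX, through the probe set with the highest mean. Grey points are control arrays, orange points Ota arrays, black marks the mean and SD of 3 arrays, and the dotted line is the filter value of 4. The control arrays of 72 h sit between 3.34 and 4.31 for TXNIP, and the MLX values of Ota cells at 24 h sit between 3.76 and 5.43.

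The other TXNIP probe sets gave the same picture at 72 h, but at 24 h 201010_s_at did not. On 201010_s_at control cells at 24 h had 10.04, 9.67 and 10.07 and Ota cells had 9.92, 10.00 and 9.68, which overlap, with a difference of -0.062 ± 0.24 (SE). On 201009_s_at the controls had 9.74, 9.47 and 9.52 and the Ota cells 10.64, 10.73 and 10.35, which do not overlap, with a difference of 0.99 ± 0.38 (SE). The 24 h difference of TXNIP therefore depended on the probe set. At 72 h the 2 probe sets gave Ota cells higher by 2.99 ± 0.24 and 4.45 ± 0.38 (SE). For control cells between 24 h and 72 h they gave -5.81 ± 0.24 and -6.72 ± 0.38 (SE). On 201010_s_at the control values at 72 h were 4.12, 4.11 and 4.12, so close together that their SD was 0.0077, at the low end of that probe set's range.

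Replicate 3 was the lowest of the Ota arrays at 72 h on every TXNIP probe set, with 6.54, 6.46 and 6.20. The same array was the lowest of its group for ARRDC4, and it had the lowest poly-A spike-in mean of the group (8.54, against 8.90 and 9.27). Without it the TXNIP difference at 72 h was 4.47, and over all single arrays left out the difference ranged from 3.45 to 4.47. The part of the spike-in signal in this array's values was not tested.

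**Figure D2:**
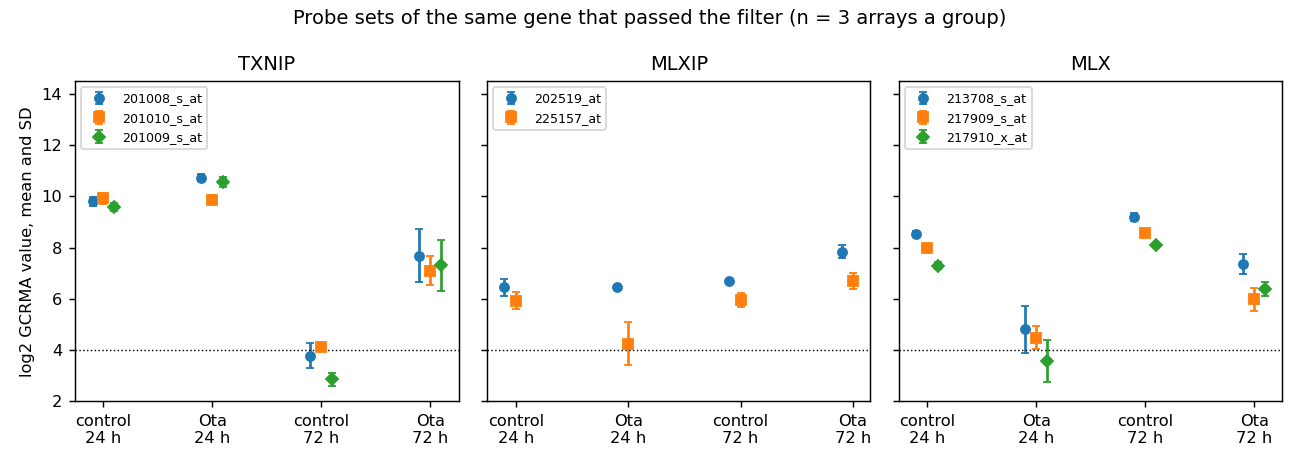
Group mean and SD (n = 3 arrays) of every probe set that passed the filter, for the 3 genes with more than 1. The dotted line is the filter value of 4. For TXNIP 201010_s_at stands under the other probe sets at 24 h in Ota cells, at 9.87 against 10.73 and 10.57. For MLXIP 225157_at drops to 4.25 in Ota cells at 24 h while 202519_at stays at 6.48.

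ARRDC4 was also higher in Ota cells than in controls at both times, with the larger difference at 24 h. Its single probe set, 225283_at, read 5.09, 4.32 and 5.23 in control cells at 24 h and 7.63, 7.29 and 7.41 in Ota cells. At 72 h it read 3.55, 3.52 and 3.94 in control cells and 5.21, 5.47 and 4.20 in Ota cells. Ota arrays lay above all controls of their time, by the widest margin at 24 h, and the closest values at 72 h were 4.20 and 3.94.

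The ARRDC4 means were 4.88 ± 0.49 in controls and 7.44 ± 0.18 in Ota cells at 24 h (SD, n = 3 each), a difference of 2.56 ± 0.32 (SE). They were 3.67 ± 0.23 and 4.96 ± 0.67 at 72 h (SD, n = 3 each), a difference of 1.29 ± 0.32 (SE). The control means had 11.5% and 2.64% of the tested genes under them, so no fold is given for either difference. At 24 h ARRDC4 had the 156th highest difference of the 10729 genes, and at 72 h 8.61% of the genes lay above it. The 72 h difference was smaller than the 24 h one by 1.27 ± 0.45 (SE), whereas for TXNIP it was the larger one. Without Ota replicate 3 the 72 h difference of ARRDC4 was 1.67.

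ARRDC4, like TXNIP, was lower at 72 h than at 24 h. The difference was -1.21 ± 0.32 (SE) in control cells and -2.48 ± 0.32 (SE) in Ota cells. The control values at 72 h were all under 4, near the low end of the scale. In the order of groups Ota at 24 h stood alone at the top. Ota at 72 h and control at 24 h overlapped, with means of 4.96 and 4.88, and control at 72 h was lowest.

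MLXIP, which encodes MondoA itself, differed from controls in Ota cells at 72 h on its brighter probe set. On 202519_at control cells read 6.62, 6.08 and 6.67 at 24 h and 6.78, 6.67 and 6.62 at 72 h. Ota cells read 6.50, 6.47 and 6.48 at 24 h and 7.90, 7.58 and 8.06 at 72 h. The Ota arrays of 72 h lay above all other arrays, and the other 3 groups lay within 6.08 to 6.78, with control and Ota overlapping at 24 h.

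The MLXIP difference between Ota and control was 0.025 ± 0.18 (SE) at 24 h, from means of 6.46 ± 0.33 and 6.48 ± 0.02 (SD, n = 3 each). At 72 h it was 1.16 ± 0.18 (SE) or 2.23-fold, from means of 6.69 ± 0.08 and 7.85 ± 0.24 (SD, n = 3 each). Between 24 h and 72 h MLXIP was higher by 0.23 ± 0.18 (SE) in control cells and by 1.36 ± 0.18 (SE) in Ota cells. TXNIP and MLXIP thus went opposite ways with time in Ota cells.

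The second MLXIP probe set, 225157_at, read 6.21, 5.57 and 6.02 in controls at 24 h and 4.41, 3.34 and 5.01 in Ota cells. At 72 h it read 6.26, 5.79 and 5.83 in controls and 6.91, 6.34 and 6.84 in Ota cells. On this probe set MLXIP was lower in Ota cells at 24 h without overlap, with a difference of -1.68 ± 0.35 (SE), and higher at 72 h by 0.74 ± 0.35 (SE). The 2 probe sets agreed in direction at 72 h and disagreed at 24 h. The remaining 2, 1554886_a_at and 211789_s_at, stayed under 4 on all arrays, at 2.68 to 2.81 and 2.36 to 2.40.

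MLX, the obligate partner of MondoA, was lower in Ota cells at both times. On 213708_s_at control cells at 24 h read 8.45, 8.64 and 8.53 and Ota cells read 5.43, 3.76 and 5.26. At 72 h control cells read 9.08, 9.37 and 9.16 and Ota cells read 7.56, 6.89 and 7.63. No 2 groups overlapped, and the order was control at 72 h, control at 24 h, Ota at 72 h and Ota at 24 h.

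The MLX difference was -3.72 ± 0.36 (SE) at 24 h. The means there were 8.54 ± 0.10 in controls and 4.82 ± 0.92 in Ota cells (SD, n = 3 each). These Ota values reach down to 3.76, near the bottom of the scale, and on 217910_x_at they were 2.68, 3.74 and 4.31. No fold is therefore given for this difference. At 72 h the MLX difference was -1.84 ± 0.36 (SE), or 3.59-fold lower. The means there were 9.20 ± 0.15 in controls and 7.36 ± 0.41 in Ota cells (SD, n = 3 each). MLX had the 245th lowest difference of the 10729 genes at 24 h, and 11.4% of the genes lay lower at 72 h. Replicate 2 of the Ota arrays was the lowest of its group at both times, and without it the 24 h difference was -3.19. MLX was higher at 72 h than at 24 h by 0.66 ± 0.36 (SE) in control cells and by 2.54 ± 0.36 (SE) in Ota cells.

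The other MLX probe sets over the filter gave the same order of groups. On 217909_s_at the differences were -3.49 ± 0.25 at 24 h and -2.59 ± 0.25 at 72 h, and on 217910_x_at they were -3.72 ± 0.32 and -1.73 ± 0.32 (SE). The third, 210752_s_at, was over 4 on 1 array only, replicate 2 of the control cells at 72 h (4.46). Its values were 3.10, 4.46 and 3.95 in that group and 2.57 to 2.69 on the other 9 arrays. The last 2, 231401_s_at and 1570347_at, stayed between 2.09 and 2.26 on all arrays.

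Set side by side, the 4 genes did not share a pattern, and the genes that encode the dimer went opposite ways at 72 h. TXNIP and ARRDC4 were lower at 72 h than at 24 h and higher in Ota cells at both times, which for TXNIP at 24 h depended on the probe set and the scale. MLX was lower in Ota cells at both times, and MLXIP was higher at 72 h. On the spike-in scale the 72 h differences of ARRDC4 and MLXIP shrank to 0.40 and 0.27. The MLXIP difference at 24 h depended on the probe set and the scale. The Ota and control arrays did not overlap for 3 of the 4 genes at 24 h, beside 65.7% of all tested genes, and for 4 of 4 at 72 h, beside 73.7%. Between 72 h and 24 h they did not overlap for 3 of 4 in control cells, beside 53.5%, and for 4 of 4 in Ota cells, beside 62.1%. Since these arrays were used to select the genes, nothing is read from these counts.

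**Figure D3:**
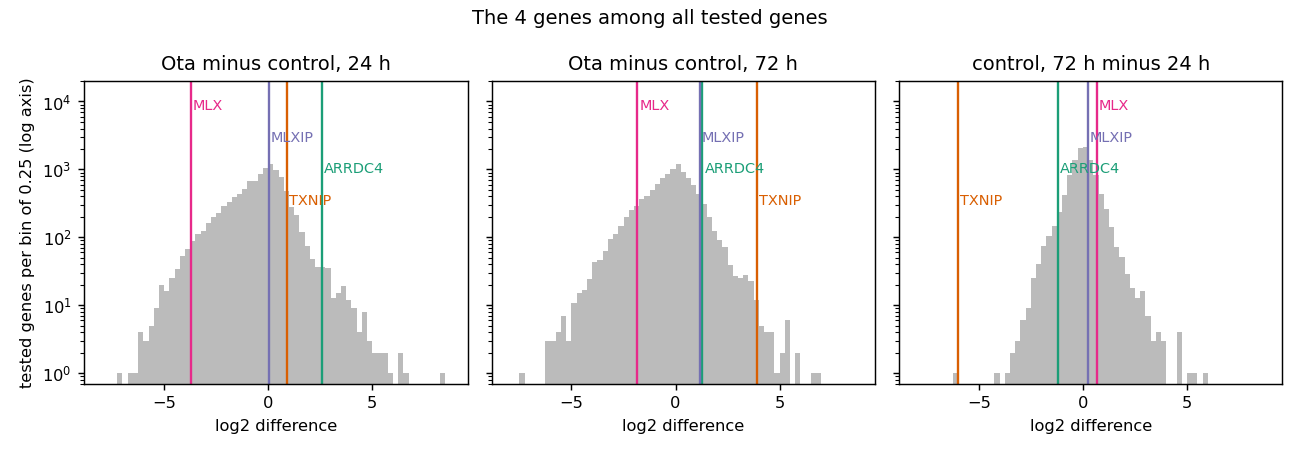
Number of tested genes (log axis) per 0.25 of log2 difference, for Ota minus control at 24 h, Ota minus control at 72 h and control cells at 72 h minus 24 h, over 10729 genes. Vertical lines mark the 4 genes. TXNIP stands at the left end of the right panel at -6.02, and MLX and ARRDC4 stand on opposite sides at 24 h, at -3.72 and 2.56.

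The scale of the arrays changed the Ota differences of TXNIP, ARRDC4, MLXIP and MLX and left the control time course nearly as it was. With each array centred on its median the 24 h differences were 1.48 for TXNIP, 3.12 for ARRDC4, 0.59 for MLXIP and -3.16 for MLX. With each array scaled to its poly-A spike-ins they were -0.93, 0.71, -1.82 and -5.57, so TXNIP was then lower in Ota cells. At 72 h the spike-in scale gave 3.01 for TXNIP, 0.40 for ARRDC4, 0.27 for MLXIP and -2.73 for MLX. The signs were those of the deposited scale, where the values were 3.90, 1.29, 1.16 and -1.84. In control cells between 24 h and 72 h, TXNIP was at -6.02 after centring and -6.06 on the spike-in scale. Which scale follows the amount of transcript per cell was not tested.

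**Figure D4:**
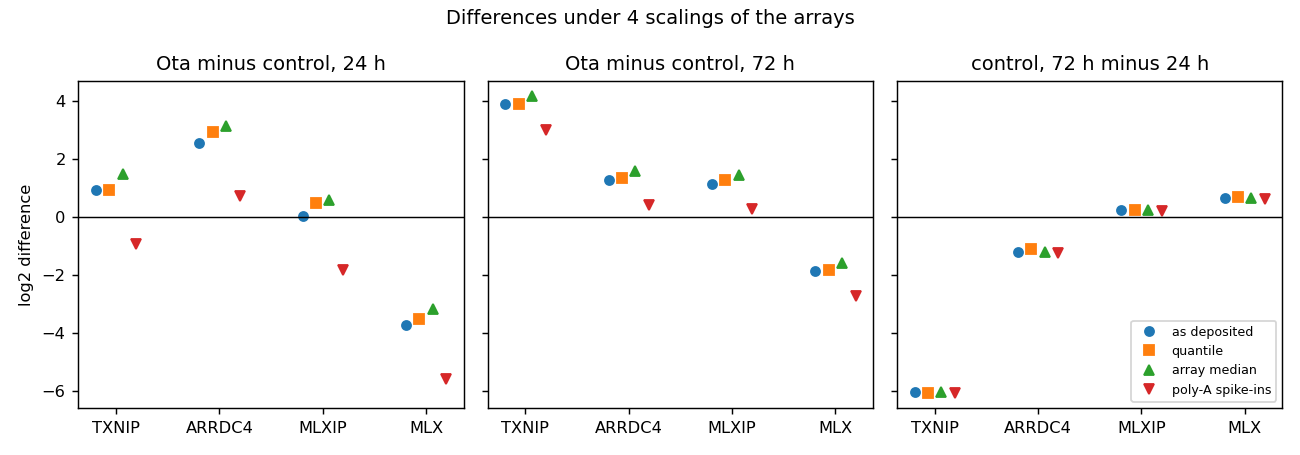
Log2 differences of the 4 genes on the deposited scale and after quantile normalization, centring on array medians and scaling to the spike-ins. In the left panel TXNIP goes from 0.92 as deposited to -0.93 on the spike-in scale. In the right panel the 4 scales nearly coincide for every gene.

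Over the 12 arrays TXNIP and ARRDC4 correlated with r = 0.81, which placed ARRDC4 306th among the genes ordered by their likeness to TXNIP. The 5 closest were GINS1 (r = 0.98), a subunit of the DNA replication helicase, the transcription factor MYBL2 (0.97), the mitotic motor KIF11 (0.97), the formin DIAPH3 (0.97) and the abscission protein CEP55 (0.96). GINS1 had group means of 11.19 and 11.59 in control and Ota cells at 24 h and of 9.33 and 10.71 at 72 h, the same order of groups as TXNIP over a narrower range. The 5 closest to ARRDC4 were FOXN2 (0.98), TWSG1 (0.98), NSL1 (0.97), CHD7 (0.97) and PRTFDC1 (0.97). TXNIP correlated with MLX at -0.69 and with MLXIP at -0.22, and ARRDC4 with MLX at -0.92 and with MLXIP at -0.20. All these values are descriptions over 12 points that fall into 4 groups and share the array-wide measures given above, so they mostly follow the group means.

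Counts of the pathway lists are read against all tested genes. By limma's test with Benjamini-Hochberg adjustment at 0.05, 20.8% of the 10729 genes were called higher and 40.5% lower in Ota cells at 24 h, and 24.8% higher and 35.2% lower at 72 h. The signed Ota effect lay higher at 72 h than at 24 h for 29.6% and lower for 19.9%. Between 72 h and 24 h in control cells 12.2% were higher and 13.3% lower. The median differences over all tested genes were -0.24 at 24 h and -0.11 at 72 h. In what follows rose and fell mean called by this test, and each value is a log2 difference between Ota and control ± SE.

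Other known or proposed targets of MondoA and of its liver relative ChREBP did not move as 1 group. Of 23 genes 14 were tested. At 24 h 3 rose and 7 fell, with a median of -0.50, and at 72 h 5 rose and 5 fell, with a median of 0.15. The split was 5 and 5, then 7 and 3, after centring, and 0 and 12, then 2 and 7, on the spike-in scale. KLF10, a glucose-responsive repressor, rose by 2.95 ± 0.22 at 72 h. The fatty acid elongase ELOVL6 rose by 1.52 ± 0.14 and 2.47 ± 0.14, but 1 of its 3 probe sets agreed, the mean over probe sets was -1.97 and -0.18, and the 24 h spike-in value was -0.33. The lipase-related PNPLA3 changed by -2.42 ± 0.37 and the fructose kinase KHK by -2.06 ± 0.41 at 24 h, and the acetyl-CoA carboxylase ACACB by -2.18 ± 0.29 and -1.86 ± 0.29 at the 2 times. The Ota mean of KHK at 24 h was 3.52, under the filter value of 4.

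The dimer shares DNA-binding and dimer partners with the MYC and MAX network, of which 7 of 11 listed genes were tested and MLXIPL, which encodes ChREBP, was not. At each time 1 rose and 4 fell, with medians of -0.64 and -0.82. After centring 1 fell at 24 h and 4 at 72 h, and on the spike-in scale 6 fell at each time. MNT, a repressor that can pair with MLX, changed by -2.75 ± 0.45 and -1.47 ± 0.45, and MAX, the common partner, by -0.94 ± 0.31 and -1.23 ± 0.31. The 24 h value of MAX did not pass after centring or without control replicate 1 or 3 of that time. MXI1 changed by -2.83 ± 0.28 at 72 h. MXD1, another partner of MLX, rose by 2.56 ± 0.31 and 0.93 ± 0.31, with 1 of its 2 probe sets agreeing. It did not pass at either time on the spike-in scale (0.71 and 0.039) or with the mean over probe sets (0.59 and 0.13). Without replicate 3 of the 24 h controls 2 of the list fell at 24 h, and without replicate 1 or 2 of either 72 h group MXD1 no longer passed at 72 h.

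Of the 14-3-3 proteins, which hold MondoA in the cytoplasm, and the exportin XPO1, all 8 were tested. At 24 h 3 rose and 2 fell, and at 72 h 6 rose and 0 fell, with medians of 0.14 and 0.84. Scaled to the spike-ins, 8 fell at 24 h, and 1 rose and 1 fell at 72 h. SFN changed by -1.90 ± 0.18 and YWHAH by -1.36 ± 0.23 at 24 h. At 72 h XPO1 rose by 1.61 ± 0.17 (0.67 with the mean over probe sets), YWHAZ by 1.05 ± 0.15 (1.74) and YWHAG by 0.94 ± 0.18, of which YWHAZ and YWHAG did not pass on the spike-in scale. The 24 h rise of XPO1 (0.48 ± 0.17) was no longer called without Ota replicate 1 or 3 or control replicate 1 or 2 of that time, and was -1.37 on the spike-in scale.

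NF-Y is the CCAAT-binding trimer that works beside MondoA at the TXNIP promoter, and 6 of 7 genes of its list were tested. NFYA, its DNA-contacting subunit, fell by 4.12 ± 0.33 at 24 h, with all 5 probe sets in the same direction and a mean over them of -2.20. At 72 h its difference was -0.97 ± 0.33, which passed as deposited but not after centring. NFYC rose by 1.65 ± 0.16 at 24 h (-0.20 on the spike-in scale) and NFYB by 0.82 ± 0.24 at 72 h (-0.065, and 0.51, not past the threshold, with the mean over probe sets). The coactivator CREBBP changed by -0.81 ± 0.27 at 24 h and FOXO3 by -0.49 ± 0.19 at 72 h. The mean over probe sets had the opposite sign for both, at 0.77 and 0.0059, and neither passed after centring.

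Counted as a list, 1 of these 6 rose and 2 fell at 24 h and 2 rose and 2 fell at 72 h, with medians of -0.16 and -0.11. After centring 2 rose and 1 fell, then 2 rose and 0 fell. With the spike-ins as the scale 0 rose and 5 fell, then 0 rose and 4 fell. The 72 h falls were 0 without Ota replicate 1 or 3 or control replicate 1 of that time, and 1 without control replicate 2 or 3 of 72 h or any control of 24 h. The 72 h rises were 1 without Ota replicate 1 or 2 or any control of 72 h, and the 24 h falls were 1 without control replicate 1.

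Other arrestin family genes did not show the pattern of TXNIP and ARRDC4. Of 8 genes 4 were tested, and 0 rose and 2 fell at 24 h (median -0.69), while 1 rose and 1 fell at 72 h (median -0.19). After centring 1 fell at 24 h, and on the spike-in scale 4 fell at 24 h, and 0 rose and 3 fell at 72 h. ARRDC1 fell, at -3.09 ± 0.26 and -3.40 ± 0.26. Its Ota means were 3.85 and 3.30, under the filter value of 4. ARRDC3 fell, at -0.79 ± 0.16 at 24 h, which was not past the threshold after centring. ARRB1, a beta-arrestin, rose by 1.65 ± 0.44 at 72 h, with 3 of its 7 probe sets agreeing, a mean over probe sets of -0.68 and 0.76, not past the threshold, on the spike-in scale.

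The NEDD4 family holds ITCH, the ubiquitin ligase that marks TXNIP for degradation, and its relatives, of which 7 of 9 were tested. At 24 h 2 rose and 2 fell, and at 72 h 2 rose and 1 fell, with medians of -0.16 and 0.17. After centring the counts were 3 and 1 at each time, and on the spike-in scale 1 and 6, then 2 and 2. NEDD4L rose by 3.74 ± 0.20 and 1.61 ± 0.20 and WWP1 by 0.95 ± 0.16 and 1.79 ± 0.16. At 24 h 1 of 2 WWP1 probe sets went that way, the mean over them was 0.045, not past the threshold, and the spike-in value was -0.90. WWP2 fell, at -3.85 ± 0.22 and -1.45 ± 0.22, the former to an Ota mean of 3.45, under the filter value of 4. Leaving out any of 8 single arrays left 1 fall at 24 h: Ota replicate 2 of 24 h, Ota replicates 1 and 2 of 72 h, control replicates 1 and 2 of 72 h and all 3 controls of 24 h.

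Thioredoxin is the protein TXNIP is named for, and of its system 16 of 19 genes were tested. At 24 h 6 rose and 3 fell, and at 72 h 4 rose and 6 fell, with medians of 0.13 and -0.15. After centring the counts were 10 and 3, then 6 and 5, and on the spike-in scale 0 and 16, then 1 and 10. DDIT4, a stress-induced inhibitor of mTOR that can form a complex with TXNIP, fell, at -4.39 ± 0.16 and -3.90 ± 0.16. Nucleoredoxin, NXN, fell, at -3.99 ± 0.19 and -2.45 ± 0.19, and so did the methionine sulfoxide reductase MSRB1, at -3.86 ± 0.21 and -2.50 ± 0.21. MSRB2 rose by 1.17 ± 0.18 at 24 h (-0.68 on the spike-in scale and 2.70 with the mean over probe sets). MAP3K5, a kinase held inactive by thioredoxin, rose by 1.82 ± 0.21 at 72 h. Without Ota replicate 3 of 24 h, 5 of the list fell at that time.

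Of 17 glucose transporters 9 were tested, and 2 rose and 3 fell at 24 h and 2 rose and 4 fell at 72 h, with medians of -0.33 and -0.22. After centring the counts were 4 and 2, then 3 and 1, and on the spike-in scale 0 and 8, then 0 and 5. SLC2A1, which encodes GLUT1, the transporter that TXNIP is best known to restrain, rose by 1.36 ± 0.24 at 72 h (0.48, not past the threshold, on the spike-in scale). SLC2A9, a urate transporter of this family, rose by 2.20 ± 0.18 at 24 h from a control mean of 2.29 (0.35, not past the threshold, on the spike-in scale). SLC2A6 fell by 2.19 ± 0.31 and the fructose transporter SLC2A5 fell by 1.33 ± 0.23 at 24 h, and SLC2A11 fell by 1.77 ± 0.22 at 72 h. SLC2A10 changed by -1.01 ± 0.33 at 72 h, which no longer passed after centring or without Ota or control replicate 3 of that time. Without that control array 1 of the list fell at 72 h.

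Genes listed around glucose 6-phosphate, the signal MondoA reads, were mostly lower at 72 h. The list holds enzymes that make or remove it, and also its transporter SLC37A4 and the lactonase PGLS, which do neither. Of 16 genes 10 were tested. At 24 h 1 rose and 4 fell, and at 72 h 0 rose and 8 fell, with medians of -0.52 and -1.18. After centring 3 rose and 1 fell, then 1 rose and 7 fell, and on the spike-in scale 10 and then 9 fell. SLC37A4, which carries glucose 6-phosphate into the endoplasmic reticulum, fell by 3.25 ± 0.23 and the lactonase PGLS fell by 2.04 ± 0.23 at 72 h. The Ota mean of SLC37A4 at 72 h was 3.94, under the filter value of 4. The hexokinases changed by -1.58 ± 0.24 for HKDC1, -0.97 ± 0.24 for HK2 and -0.93 ± 0.22 for HK1 at 24 h, of which HK2 and HK1 did not pass after centring. HKDC1 changed by -1.52 ± 0.24 at 72 h. The 24 h rise of GPI (0.40 ± 0.15, and -1.45 on the spike-in scale) was lost without any of 8 arrays: Ota replicates 1 and 2 of 24 h and all controls of either time. The rises at 24 h were 3 without Ota replicate 3 of 24 h and 2 without Ota replicate 2 or 3 of 72 h. Without Ota replicate 2 of 24 h, 1 gene rose at 72 h.

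Of 24 genes of glycolysis below glucose 6-phosphate 20 were tested, and 3 rose and 4 fell at 24 h and 8 rose and 8 fell at 72 h, with medians of -0.013 and 0.072. After centring the counts were 11 and 3, then 9 and 7, and on the spike-in scale 1 and 19, then 0 and 10. ALDOC, an aldolase, rose by 2.81 ± 0.31 and 1.55 ± 0.31 from control means of 2.70 and 2.72, the latter (0.66) not past the threshold on the spike-in scale. PFKFB2, which makes the activator of phosphofructokinase, changed by -2.53 ± 0.16 and -3.29 ± 0.16. Only 1 of its 2 probe sets went that way, and the mean over probe sets was -1.06 at 24 h and 0.49 at 72 h. Through the probe set with the highest mean, its Ota means were 3.61 and 3.87, under the filter value of 4. PDK4, a brake on pyruvate oxidation, fell by 2.24 ± 0.23 at 24 h, and at 72 h PDK2 (-2.15 ± 0.38) and PFKM (-1.76 ± 0.27) fell. Without control replicate 1 of 72 h, 5 of the list rose at 72 h.

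Of 13 pentose phosphate and hexosamine enzymes 10 were tested, and 1 rose and 5 fell at 24 h and 1 rose and 4 fell at 72 h, with medians of -0.54 and -0.33. After centring the counts were 3 and 3, then 2 and 4, and on the spike-in scale 0 and 10, then 1 and 7. RPE fell, at -4.31 ± 0.16 and -2.58 ± 0.16. OGT, which places the sugar tag O-GlcNAc on proteins, fell, at -2.42 ± 0.26 and -1.64 ± 0.26, whereas OGA, which removes it, rose by 2.15 ± 0.17 at 72 h. UAP1 fell by 1.57 ± 0.29 at 24 h. The 24 h rise of TALDO1 (0.45 ± 0.17, and -1.40 on the spike-in scale) was lost without Ota replicate 1 or 2 or control replicate 1 or 3 of that time or control replicate 1 of 72 h.

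AMPK, mTOR and the insulin receptor act on TXNIP and on MondoA, and 19 of 20 listed genes were tested. At 24 h 4 rose and 8 fell, and at 72 h 7 rose and 9 fell, with medians of -0.41 and -0.39. After centring the counts were 6 and 6, then 8 and 7, and on the spike-in scale 0 and 18, then 2 and 11. DEPTOR, an inhibitor within the mTOR complexes, fell, at -3.51 ± 0.15 and -2.20 ± 0.15, as did RPTOR at 24 h (-1.98 ± 0.26) and MLST8 at 72 h (-3.73 ± 0.19). STK11, the kinase above AMPK, rose by 2.06 ± 0.28 at 24 h (0.21, not past the threshold, on the spike-in scale, and 1.14 with the mean over probe sets). The AMPK subunits PRKAG1 and PRKAG2 went opposite ways at 72 h, at -2.11 ± 0.18 and 1.86 ± 0.28.

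**Figure D5:**
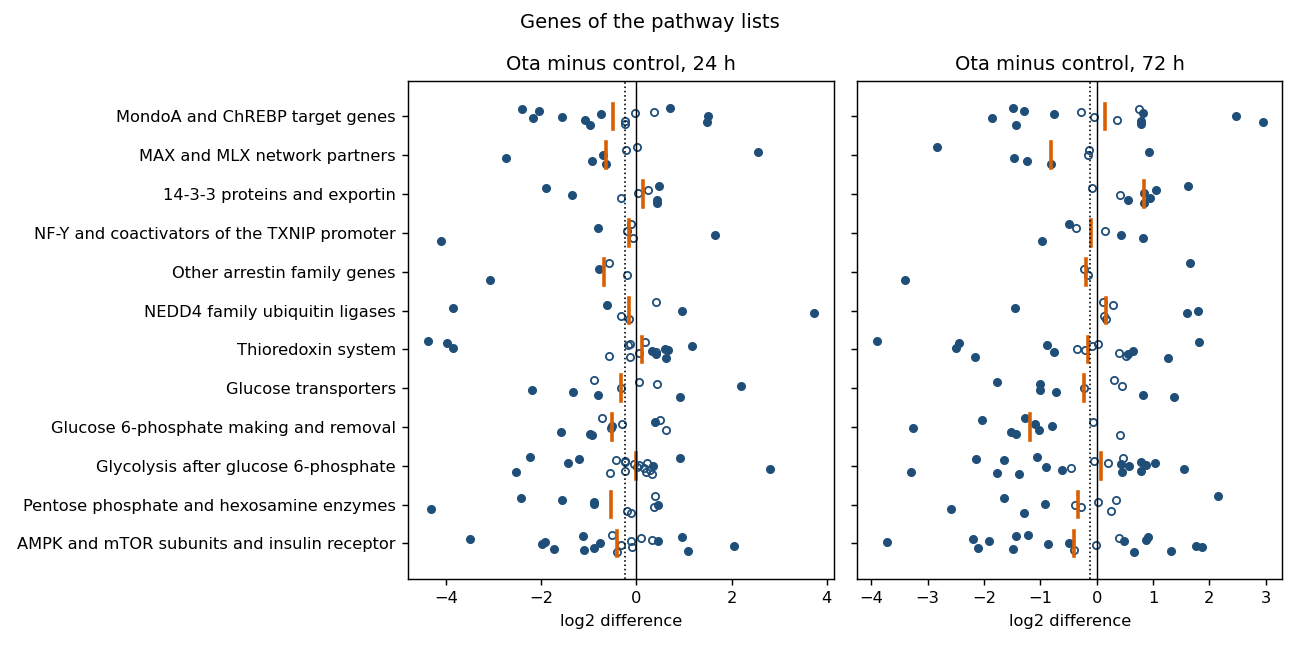
Log2 difference of each tested gene of the 12 lists, Ota minus control at 24 h (left) and 72 h (right), on the deposited scale. Filled points passed the test, open points did not, orange bars are list medians and the dotted line is the median of all tested genes (-0.24 and -0.11). The glucose 6-phosphate list has its median at -1.18 at 72 h. On the spike-in scale 10035 of the 10187 genes called at 24 h were lower in Ota cells. Of the lists, only the NEDD4 family and glycolysis had rises at 24 h on that scale, 1 gene each.

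Between 72 h and 24 h in control cells, where TXNIP had its largest difference, the counts were as follows. In the target list 1 rose and 4 fell of 14, in the MAX network 2 and 0 of 7, in the 14-3-3 list 0 and 5 of 8, in the NF-Y list 2 and 0 of 6 and among the other arrestins 0 and 1 of 4. The ligases had 3 and 1 of 7 and the thioredoxin system 1 and 4 of 16. The transporters had 1 and 1 of 9 and the glucose 6-phosphate list 2 and 2 of 10. Glycolysis had 1 and 9 of 20, the pentose phosphate and hexosamine enzymes 2 and 2 of 10, and the AMPK and mTOR list 1 and 2 of 19. Scaled to the spike-ins, 4 of the glycolysis genes fell and 1 rose, and the 14-3-3 list had 3 falls.

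The Ota effect itself differed between the times for many of these genes, tested as the difference between both effects. As a signed value it lay higher at 72 h for 8 and lower for 2 of the 14 target genes, 6 and 0 of the 8 genes of the 14-3-3 list, 0 and 2 of the 7 of the MAX network, and 2 and 1 of the 6 of the NF-Y list. It lay higher for 1 and lower for 0 of the 4 other arrestins, 3 and 1 of the 7 ligases, 5 and 5 of the 16 thioredoxin genes and 2 and 3 of the 9 transporters. Higher and lower counts were 1 and 4 of 10 for the glucose 6-phosphate list and 6 and 7 of 20 for glycolysis. The pentose phosphate and hexosamine enzymes had 4 and 3 of 10, and the AMPK and mTOR list 4 and 3 of 19. A higher value can go with a smaller difference, as for SFN, and a lower one with a larger difference, as for MXI1. Scaled to the spike-ins the counts were 11 and 1 for the target genes and 1 and 2 for the glucose 6-phosphate list. The 14-3-3 list had 8 and 0, the MAX network 3 and 1 and the NF-Y list 4 and 0. The other arrestins had 2 and 0, the ligases 5 and 1, the thioredoxin genes 10 and 1 and the transporters 6 and 0. Glycolysis had 10 and 0, the pentose phosphate and hexosamine enzymes 7 and 0 and the AMPK and mTOR list 12 and 0.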

How the data were processed

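RNA from 12 samples of HK-2 cells was measured on Affymetrix arrays, 3 for each of 4 groups taken from the labels. The authors deposited log2 values per probe set, made with GCRMA per the submitters' processing notes, which give no version of it. Whether all arrays were normalized together is not given in the sources used here. A table pairing probe sets with genes assigned 1 symbol to 41097 probe sets. It assigned more than 1 to 1801 and no symbol to 11777. Of the 41097, 41043 matched a current gene record, with 0 symbols updated. There were 0 columns of samples outside the series.

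Probe sets with 1 symbol were kept if they exceeded 4 on 3 arrays or more, and the probe set with the highest mean stood for its gene. The 4 group means were fitted with limma 3.58.1 in R 4.3.3 over all 12 arrays, with moderated variances, two-sided tests and Benjamini-Hochberg adjustment over 10729 genes at a threshold of 0.05. The SE of a difference is limma's moderated one, and for further probe sets of a gene it comes from a fit together with all kept probe sets. It rests on a common variance over all 4 groups, so the SE of a gene is the same at both times. The number of arrays limits the precision, with a median SE of 0.21 for a log2 difference between Ota and control at 24 h. No genome build is named for the arrays, and promoter sequences are those of RefSeq on GRCh38.p14, where a window is 250 bases before a start.

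The 4 genes and all lists were chosen with earlier results of these data known. Named from each list were up to 3 genes with the largest difference past the threshold at 24 h and at 72 h, with the largest in the other direction, and the 5 genes closest to TXNIP and to ARRDC4 by correlation. Alternatives were quantile normalization, centring on array medians, scaling to 24 poly-A spike-in probe sets, no filter, a value over 6, the mean over probe sets, a variance trend with robust moderation, the replicate number as a block and leaving out each array. For the control time course of the 4 genes they were added after seeing the data.

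Equal replicate numbers correlated in their deviations at 0.125, 0.231 and 0.271 at 24 h and at -0.05, 0.139 and 0.192 at 72 h, so not every pair was over 0.1 and the numbers were not taken to pair the arrays. In data simulated for the 24 h comparison, with 200 of 10729 genes changed, the fit recovered 8%, 74%, 94% and 100% of 50 genes each at log2 changes of 0.5, 1, 2 and 4, and 4.83% of its calls were unchanged genes. The simulation held no array-wide shift and far fewer changed genes than the 6579 called at 24 h. Its rates need not hold for the real comparison.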

Additional observations from a re-analysis of the deposited data

Results flagged for a closer look

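For 41 of the 58 genes named from the lists, the Ota effect at 72 h differed from that at 24 h by limma's test of the difference itself (Benjamini-Hochberg adjusted over all tested genes, threshold 0.05). Over all tested genes the 2 effects differed for 5313 of 10729, or 49.5%. The named genes were picked for a large difference at 1 of the times, so their share is not set against that. The values that follow are the log2 effect at 72 h minus that at 24 h, on the deposited scale. A positive value means that the difference between Ota and control cells lay higher at 72 h. Values that rest on a group mean under 4 are the least certain, among them those of WWP2, RPTOR, MLST8, PFKFB2, SLC37A4, ALDOC and SLC2A9. On the spike-in scale every value is larger by 0.96, which exceeds the size for PFKFB2 and TALDO1, so their sign depends on the scale.

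Among the target genes the value was 3.17 for PNPLA3, 1.47 for KLF10 and 0.95 for ELOVL6. The partners MXD1 and MXI1 had -1.63 and -2.84. In the 14-3-3 list SFN had 1.81, YWHAH 1.76, YWHAG 1.27, YWHAZ 0.81 and the exportin XPO1 1.13.

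The NF-Y subunits differed among themselves, with 3.15 for NFYA, 0.91 for NFYB and -1.22 for NFYC. ARRB1 had 2.24. Of the ubiquitin ligases WWP2 had 2.40 and WWP1 0.84, while NEDD4L had -2.13. In the thioredoxin system the value was 1.63 for MAP3K5, 1.55 for NXN, 1.35 for MSRB1 and -1.25 for MSRB2.

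Of the transporters SLC2A6 had 1.19, SLC2A10 -1.44, SLC2A9 -1.75 and SLC2A11 -1.82. HK1 had 1.34, whereas PGLS had -2.53 and SLC37A4 -2.72. In glycolysis PDK4 had 1.19, PFKFB2 -0.76, PFKM -1.20 and ALDOC -1.26.

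UAP1 had 1.91, OGA 1.76 and RPE 1.73, and TALDO1 had -0.83. Of the AMPK and mTOR list PRKAG2 had 1.96, DEPTOR 1.31 and RPTOR 1.11, while PRKAG1 had -1.22 and MLST8 -1.80.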

How the results depend on the processing

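The scale of the arrays moved more values than any other choice tried. Scaled to the spike-ins, 10187 genes were called at 24 h (6579 as deposited) and 1280 in the control time course (2739). Rises made up 34.0% of the calls at 24 h as deposited, 45.0% after quantile normalization, 61.9% after centring, 48.6% with no filter and 1.49% on the spike-in scale. At 72 h they were 41.3% as deposited, 56.1% after centring and 7.63% on the spike-in scale. For the difference between the Ota effects they were 59.8%, 46.9% and 91.9%. The median of all tested genes shifted by 0.56 and 0.28 at the 2 times with centring, by -1.85 and -0.89 with the spike-ins, by 0.20 at 24 h with quantile normalization and by 0.27 and 0.13 with no filter. For the difference between the effects the shifts were -0.28 with centring, 0.96 with the spike-ins, -0.16 with quantile normalization and -0.18 with no filter.

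Scaled to the spike-ins, TXNIP was at -0.93 (24 h) and 3.01 (72 h), ARRDC4 at 0.71 and 0.40, MLXIP at -1.82 and 0.27, and MLX at -5.57 and -2.73. After centring TXNIP was at 1.48 and ARRDC4 at 3.12 at 24 h, and MLXIP at 0.59 and 1.44 at the 2 times. Quantile normalization gave 2.94 for ARRDC4 and 0.50 for MLXIP at 24 h. The mean over probe sets gave 0.62 for TXNIP at 24 h and -0.83 and 0.95 for MLXIP at the 2 times. The cause was not tested.

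The direction turned on the spike-in scale at 24 h for ELOVL6 (-0.33), XPO1 (-1.37), NFYC (-0.20), WWP1 (-0.90), MSRB2 (-0.68), GPI (-1.45) and TALDO1 (-1.40), and at 72 h for NFYB (-0.065). With the mean over probe sets it turned for ELOVL6 (-1.97 and -0.18), for CREBBP at 24 h (0.77), and at 72 h for FOXO3 (0.0059), ARRB1 (-0.68) and PFKFB2 (0.49). Of the 78 calls of named genes, some kept their direction but were lost, and these overlap between choices and with the calls that turned. They were 9 with an array left out, 8 after centring and 3 after quantile normalization. They were 5 with no filter and 0 with a value over 6. With the mean over probe sets they were 4 (MXD1 at both times, WWP1 at 24 h and NFYB at 72 h). With the spike-ins as the scale 9 kept their direction and lost the call: MXD1 at both times, SLC2A9 and STK11 at 24 h, and YWHAZ, YWHAG, ARRB1, SLC2A1 and ALDOC at 72 h.

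With the replicate block, 6659 and 6529 genes were called for Ota at 24 h and 72 h, 5399 for the difference between the effects and 2810 for the control time course, against 6579, 6445, 5313 and 2739 without it. The replicate block ended 1 call of a named gene, FOXO3 at 72 h. At 24 h each array correlated best with its own number, as a hint from the data and not from the design. Leaving out single arrays gave 5870 to 6648, 5753 to 7110, 4633 to 5888 and 1913 to 3583 calls. For the 4 genes it gave ranges of 0.82 to 0.99 for TXNIP and 2.28 to 2.74 for ARRDC4 at 24 h. With 3 arrays a group and no detection calls, differences from values under 4 are the least certain.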

Other observations

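The genes next to TXNIP at the low end of the control time course were chosen by their rank after the values were seen. GAL, which encodes the neuropeptide galanin, came next after TXNIP, with a log2 difference of -4.15 ± 0.30 (SE) between 72 h and 24 h in control cells. Its group means were 7.30 in control and 9.75 in Ota cells at 24 h, and 3.14 and 8.61 at 72 h, so its Ota difference at 72 h was 5.46. NCAPH, a condensin subunit, went from 8.28 to 5.02 in control cells and stood at 7.61 and 7.63 in Ota cells.

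SCN3A, a sodium channel, and GINS4, a replication factor, followed at -3.74 and -3.47, and SPC25, a kinetochore protein, at -3.20. SCN3A stood at 6.45 in control and 6.59 in Ota cells at 24 h and at 2.71 and 3.54 at 72 h, the same order of group means as TXNIP, but its Ota difference at 72 h (0.83) did not pass. GINS4 stood at 3.15 and 2.70 in Ota cells at 24 h and 72 h, under its control mean of 6.48 at 24 h. SPC25 stood at 4.60 and 6.50 in Ota cells, against 9.40 and 6.20 in controls.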
